A study of Mus musculus with 4 samples.

Results

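The cells described here were B cells, CD8 T cells and natural killer (NK) cells from the spleen and the blood of 3 vehicle mice. They were chosen from droplet counts by fixed UMI limits (a UMI is a molecular tag that counts 1 captured mRNA molecule). A B cell held at least 3 UMIs over Cd79a, Cd79b and Ms4a1 and no Cd3e. A CD8 T cell held at least 1 Cd3 UMI, at least 1 Cd8a or Cd8b1 UMI and no Cd4. An NK cell held at least 2 UMIs over Ncr1 and Klrb1c and no Cd3 UMI. In all 2163 of the 3183 vehicle cells that could be assigned to a mouse and a tissue passed at least 1 gate, among 28480 barcodes in the 2 libraries of the series. They comprised 1481 B cells, 570 CD8 T cells and 147 NK cells, and 35 cells stood in a pair of gates. Of these 35, 20 passed the B and CD8 T gates and 15 the B and NK gates. They counted in both classes. The genes of the gates were used to choose the cells and are not reported as results.

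All mice were B6 mice that carried BeCon, which the study's title places in ovarian cancer, so no group was free of tumour. Vehicle mice 1, 2 and 3 each gave a spleen and a blood sample. Mice 2, 3 and 4 of the other arm had received YKL-05-099, an inhibitor of the salt inducible kinases, and are used below only as samples outside the main comparison. Viable cells positive for CD45 (carried by all leukocytes) and for MHC class I had been sorted before loading. Age, dose, time and the preparation of each tissue were not given in the sources used here, so tissue and the handling of that tissue cannot be told apart.

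Lymphocytes circulate between blood and lymphoid organs. Sphingosine-1-phosphate is abundant in blood, and receptors for it such as S1PR1 draw cells out of tissue; the transcription factor KLF2 drives S1pr1, while CD69 pulls S1PR1 from the surface. The spleen also holds cells that recirculate little, foremost the marginal zone B cells, which sample blood-borne antigen, beside plasma cells and dividing cells. NK cells mature in steps, gaining cytotoxic granule proteins and S1PR5 and losing IL-7 receptor, and the mature cells dominate in blood.

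Each sample carried a hashtag, an antibody joined to an oligonucleotide of 15 bases that is read out as a count per cell. The 6 vehicle tags are shown because every statement on tissue rests on telling them apart. Capitals mark the bases at which the blood tag and the spleen tag of the same mouse differ.
Mouse 1 blood: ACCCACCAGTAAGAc
Mouse 1 spleen: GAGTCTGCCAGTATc
Mouse 2 blood: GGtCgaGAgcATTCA
Mouse 2 spleen: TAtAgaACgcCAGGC
Mouse 3 blood: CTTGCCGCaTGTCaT
Mouse 3 spleen: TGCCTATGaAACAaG
The tags of 1 mouse differed at 14, 10 and 13 of the 15 positions in mice 1, 2 and 3. A cell was assigned where at least 80% of at least 20 hashtag UMIs came from 1 tag. The median share of the leading tag was 95.7% in spleen B cells and 96.9% in blood B cells.

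Spleen samples held 584 to 635 assigned cells and blood samples 407 to 510, all in 1 droplet library. Summed UMIs per class and sample were 1202166 to 2332328 for B cells, 512698 to 1003884 for CD8 T cells and 25572 to 179947 for NK cells. Median UMIs per B cell were 7097, 7206 and 7222 in the spleens and 4739, 5022 and 4968 in the blood samples, so B cells were deeper in every spleen. Of the barcodes, 52 also occurred in the ascites library. The markers fixed for each class were highest in their own gate: the 7 B cell markers summed to 10227 to 15409 CPM in B cells (CPM is the usual scaling of UMIs to a common total per sample) and to 964 to 3715 CPM in the other 2 classes, and platelet genes reached at most 14.8 CPM. Erythroid genes ranged from 111 to 13060 CPM with no order between the tissues (in B cells 414, 2515 and 1900 CPM in spleens, 13060, 2321 and 368 CPM in blood), and monocyte genes from 252 to 3513 CPM. CPM values compare samples for 1 gene, not genes with each other, since no length enters. Hybrid droplets and free RNA were not removed by a doublet caller in the main gates; 742 of the 3183 assigned vehicle cells were doublets by HTODemux. Without them the 3 class shares and the counts of called genes in B, CD8 T and NK cells of vehicle mice were computed again; the subset shares, the tests between classes or arms and the CD4 T cells were not. The lists of other cell types used below were erythroid, neutrophil, platelet, monocyte and macrophage, and plasma cell lists. None of these was a list of B, T or NK cell markers.

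NK cells and B cells took a larger share of the assigned cells in blood than in spleen, and CD8 T cells a slightly smaller one. NK cells made up 2.20, 3.08 and 0.668% of the cells in the spleens of mice 1, 2 and 3 and 8.93, 8.35 and 7.25% in their blood, a mean of 1.98% ± 1.22 (SD, n = 3) against 8.18% ± 0.850 (SD, n = 3). For B cells the spleens gave 38.7, 42.5 and 37.1% and the blood samples 56.7, 53.3 and 57.6%, a mean difference of -16.5 percentage points. CD8 T cells were 20.2, 18.3 and 19.0% and 17.0, 16.7 and 15.1%, a mean difference of 2.91 points. In none of the 3 classes did the tissues overlap, and the direction was the same in each of the 3 mice. For CD8 T cells the tissues overlapped with a stricter gate (1.37 points, exact permutation test p = 0.4), at most 5% mitochondrial UMIs (2.77 points, exact permutation test p = 0.2) and after thinning each cell to 2000 UMIs (1.02 points, exact permutation test p = 0.6). The exact two-sided permutation test gave p = 0.1 for each class, also after Benjamini-Hochberg adjustment over the 3, which is the smallest value that 3 samples against 3 allow, and the exact sign-flip test over pairs gave its smallest value of 0.25. A count model of the cells (edgeR with the mouse as a block) gave log2 ratios of spleen to blood of -0.51 (SE 0.099) for B cells, 0.24 (SE 0.14) for CD8 T cells and -2.05 (SE 0.33) for NK cells. The shares of 1 sample are parts of 1 whole with the other cells, which made up 32.7% in spleen and 18.6% in blood, so more of one class and fewer of another cannot be told apart.

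**Figure D1:**
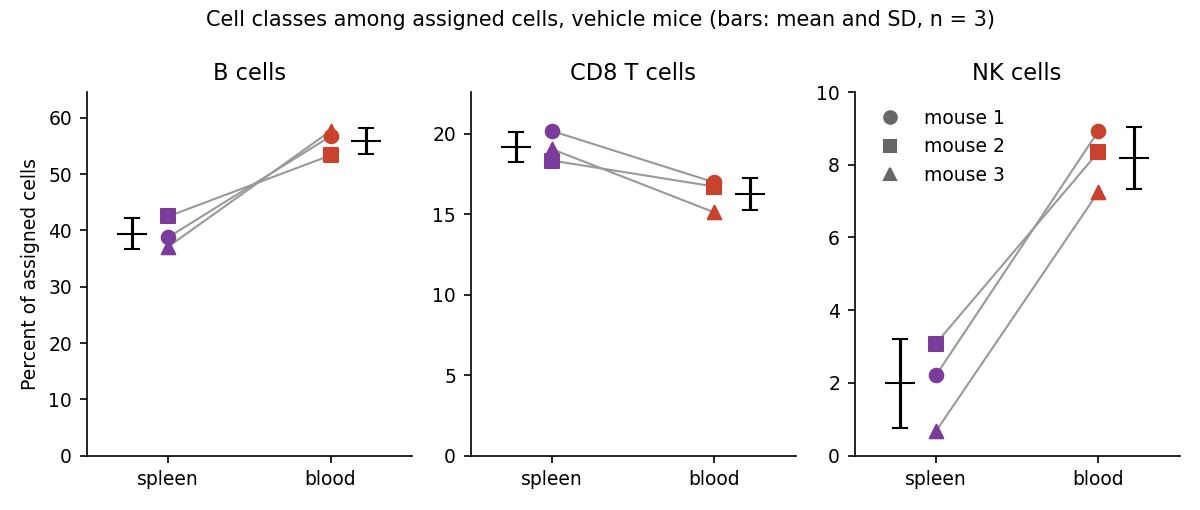
Share of assigned cells in each class (percent, y axis) in spleen and blood of vehicle mice 1 to 3, with lines joining the samples of 1 mouse and bars for the mean and SD. NK cells are near 2% in spleen and 8% in blood, and no class has overlapping tissues.

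Blood B cells carried more mRNA of most egress and follicular genes tested, and spleen B cells more of most marginal zone genes, of most genes of the germinal centre and antibody-secreting list and of the 6 heat shock genes of the stress list. Of 8769 genes tested, 2185 passed an edgeR adjusted p of 0.05 (24.9%), 1255 higher in spleen (14.3%) and 930 lower (10.6%). DESeq2 called 853 and limma voom 2193. With total counts in place of TMM scaling the median log2 change of all genes moved from -0.01 to -0.24 and the split turned to 645 higher and 2119 lower, so small changes rest on the scaling.

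Among the egress and entry genes, 17 were tested in B cells and 13 were lower and 1 higher in spleen, with a median log2 change of -0.59 beside -0.01 over all genes. The genome places of 3 central members in GRCm38.p6 are Klf2 (chromosome 8, 72319062 to 72321654), S1pr1 (chromosome 3, 115710433 to 115715055) and Ccr7 (chromosome 11, 99144199 to 99155077). Klf2, the transcription factor named above, was at 616, 583 and 560.0 CPM in the spleens of mice 1, 2 and 3 and at 1282, 1283 and 1369.6 CPM in their blood, 2.24-fold higher in blood (log2 change -1.16, SE 0.076, edgeR adjusted p = 3.88e-09). Every blood sample lay above every spleen sample. The related factor Klf3 gave 52.0, 37.5 and 38.7 against 112, 136 and 108 CPM (log2 change -1.47, SE 0.13, edgeR adjusted p = 3.73e-07). Among the receptors, S1pr4 was at 40.1, 28.1 and 24.6 CPM in spleen and 103, 97.9 and 86.1 CPM in blood (log2 change -1.64, SE 0.14, edgeR adjusted p = 7.65e-08). S1pr1, the main exit receptor, differed less: 159, 106 and 103 CPM against 155, 156 and 188 CPM, with the spleen of mouse 1 inside the blood range (log2 change -0.46, SE 0.15, edgeR adjusted p = 0.0449). This call was lost under DESeq2, where the adjusted p was 0.131. S1pr3, a receptor carried by marginal zone B cells, was the 1 member higher in spleen, at 17.7, 11.3 and 10.1 against 1.4, 0.771 and 1.20 CPM (log2 change 3.43, SE 0.47, edgeR adjusted p = 2.54e-05).

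Of 13 chemokine receptor and position genes tested in B cells 5 were lower and 3 higher in spleen, and of 17 integrin and adhesion genes 8 were lower and 2 higher. Over all genes 10.6% were lower and 14.3% higher, so the count of higher integrin and adhesion genes lay near that share. Ccr7, an egress list member and the receptor for lymph node chemokines, was at 42.7, 46.0 and 69.1 CPM in spleen and 121, 104 and 147 CPM in blood, a log2 change of -1.24 (SE 0.12). Cd69, the protein that retains cells in tissue, was also lower in spleen, at 164, 133 and 153 against 269, 291 and 289 CPM, a log2 change of -0.92 (SE 0.10). Among integrins, Itga4 (-0.73, SE 0.10) and its partner Itgb7 (-0.86, SE 0.15), which together bind the gut addressin, were lower in spleen without overlap. Itgal, a chain of LFA-1, was at -0.52 with overlapping tissues, and its sign turned without the cells that held RNA of other cell types (0.05). Cxcr4, the receptor that keeps cells in bone marrow, and Gpr183, an oxysterol receptor that places B cells in the follicle, were lower at -0.63 (SE 0.11) and -1.0 (SE 0.12), while the signal regulators Rgs1 and Rgs10 were higher at 1.48 (SE 0.16) and 1.96 (SE 0.16).

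The follicular list had 16 members tested, of which 11 were lower and none higher in spleen (median log2 change -0.78). Fcer2a, the low-affinity IgE receptor of follicular B cells (CD23), was at 55.2, 53.9 and 54.1 CPM in the spleens and 251, 227 and 266 CPM in blood, 4.55-fold higher in blood (log2 change -2.19, SE 0.10, edgeR adjusted p = 8.76e-11). Cd55, which shields cells from complement, was at 124, 102 and 100.5 against 459, 419 and 487 CPM (log2 change -2.07, SE 0.10, edgeR adjusted p = 1.64e-10). The IgD heavy chain gene Ighd gave 325, 337 and 295 against 693, 597 and 681 CPM (log2 change -1.04, SE 0.093). Lmo2, a transcriptional cofactor, was lower as well at -0.96 (SE 0.11). Members that did not pass included Bcl2 at -0.07 (SE 0.12) and Tnfrsf13c, the BAFF receptor, at 0.01 (SE 0.11).

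Marginal zone genes went the other way, with 14 of 16 tested higher and 2 lower in spleen (median 0.84). Fcrl5, an Fc receptor-like protein, was at 65.6, 80.7 and 62.8 CPM in spleen and 10.5, 17.0 and 13.8 CPM in blood (log2 change 2.34, SE 0.18, edgeR adjusted p = 2.38e-08). Dtx1, a target of the Notch signal that makes marginal zone cells, was at 109, 87.2 and 62.8 against 25.8, 26.2 and 22.7 CPM (log2 change 1.77, SE 0.15, edgeR adjusted p = 1.17e-07); in cells with at most 5% mitochondrial UMIs it did not pass, and its sign turned (log2 change -0.063, edgeR adjusted p = 0.929). Cr2, complement receptor CD21, differed less, at 249.8, 199 and 149.8 against 117, 85.6 and 111 CPM (log2 change 0.91, SE 0.13). The 3 spleens exceeded the 3 blood samples in each of these genes. Nebl and Myof were higher at 2.86 (SE 0.28) and 2.07 (SE 0.28), whereas Notch2 itself was lower at -0.85 (SE 0.14) and Cd2 at -1.33 (SE 0.14).

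**Figure D2:**
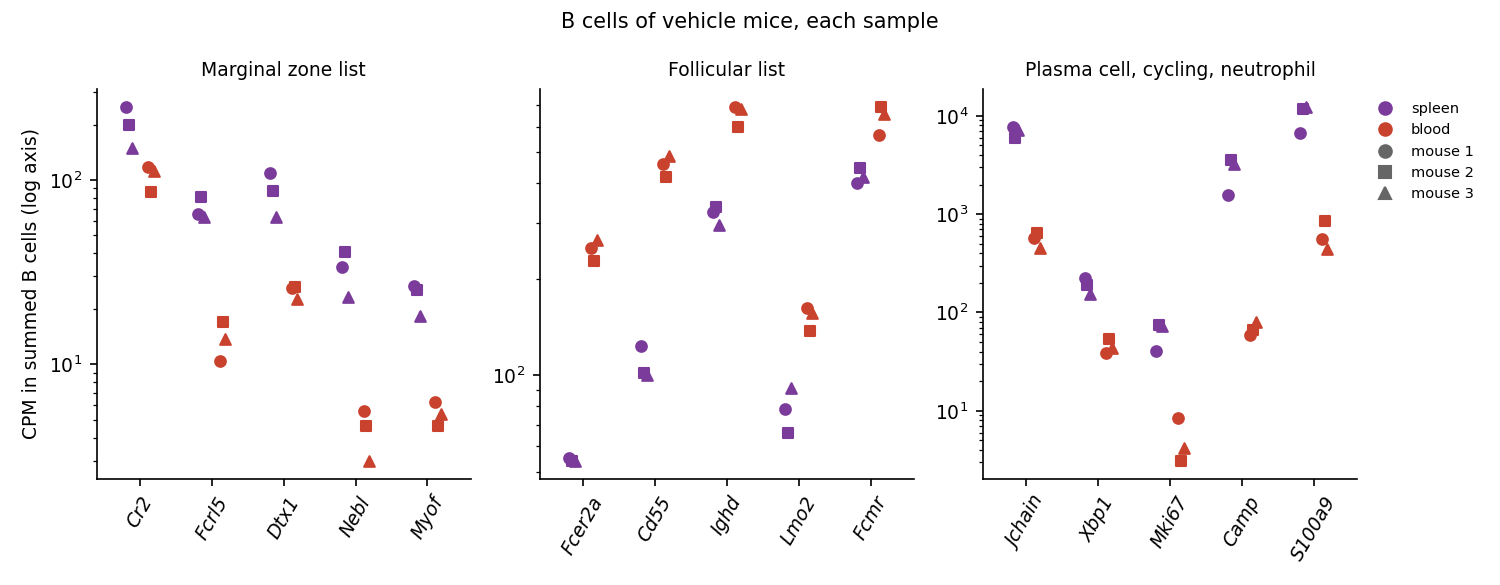
CPM in summed B cells of each vehicle sample (log y axis) for genes of 3 groups, with spleen and blood in 2 colours and mice 1 to 3 by symbol. Marginal zone genes are higher in every spleen, follicular genes in every blood sample, and Camp is at 1555, 3548 and 3229.5 CPM in spleens against 59.3, 67.1 and 79.5 in blood.

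The share of B cells with at least 2 UMIs over 7 marginal zone genes (Cd9, Cd1d1, Dtx1, Myof, Marcks, Fcrl5 and S1pr3) was 57.3, 60.5 and 56.3% in the spleens and 17.7, 22.1 and 21.4% in blood. Depth differed between the tissues, so each cell was also thinned to 2000 UMIs, which left 27.3, 21.0 and 22.3% and 6.05, 5.63 and 4.44%. The exact permutation test gave p = 0.1 for both, its smallest value. As a background from cells that are not B cells, CD8 T cells passed the same limit in 13.2% to 27.3% at full depth and 0% to 7.35% after thinning, with median depths of 7063 to 8044 UMIs. NK cells passed it in 29.4% to 56.8% and 0% to 27.3%, with median depths of 3696 to 6335 UMIs. The blood B cell shares lay within the CD8 T cell range at both depths, and no thinned spleen share exceeded the highest NK cell value. The thinned NK cell shares were 7.69, 6.25 and 0% in spleen and 20, 27.3 and 19.4% in blood, the reverse order of the B cells. Cells with a UMI of Cd93, a marker of newly made transitional B cells, were 4.47, 6.45 and 7.21% in spleen and 1.18, 2.76 and 2.04% in blood. After thinning the tissues overlapped, at 1.24, 2.42 and 0.909% and 0.403, 0.939 and 0.683% (exact permutation test p = 0.2).

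Without the marginal zone-like and transitional cells, and without cells in which a list of another cell type took 1% of the UMIs, 323 of 5717 genes (5.65%) still passed, 166 higher (2.9%) and 157 lower (2.75%) in spleen. Of the 15 egress genes tested in these cells, none was higher and 7 lower in spleen and of 16 follicular genes none was higher and 5 lower in spleen. Klf2 stood at -0.53 (SE 0.090, edgeR adjusted p = 4.42e-06), Klf3 at -1.17 (SE 0.19, edgeR adjusted p = 1.25e-06) and Fcer2a at -1.17 (SE 0.14, edgeR adjusted p = 1.41e-11). These log2 changes were smaller than in all B cells. S1pr1 no longer passed at -0.36 (edgeR adjusted p = 0.142), nor did Ighd at -0.23 (edgeR adjusted p = 0.154). Marginal zone genes were used to remove cells here and are not read as a result.

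Antigen presentation genes were slightly lower in spleen B cells: of 14 tested, 1 was higher and 9 lower in spleen, with a median of -0.25, about as large as the shift between scalings. Ciita, the master regulator of MHC class II, was at 85.9, 64.3 and 70.1 CPM in spleen and 160.5, 123 and 123 CPM in blood (log2 change -0.88, SE 0.10, edgeR adjusted p = 5.09e-06). H2-Ob, which limits peptide loading, was lower at -0.80 (SE 0.10), and H2-Aa, a class II chain, at -0.30 (SE 0.058). B2m, the light chain of MHC class I, was higher at 0.36 (SE 0.068) and did not pass with total counts. Among other genes with the largest log2 changes towards blood were the exchange factor Arhgef3 (-2.06, SE 0.17), the GPI-anchor enzyme Pgap1 (-1.88, SE 0.11), Fchsd2 (-1.83, SE 0.11), Neurl3 (-1.80, SE 0.11) and the gene models Gm26532 (-2.76, SE 0.25) and Gm30054 (-1.70, SE 0.18). The repressors Bach2 (-1.64, SE 0.18), Bcl6 (-2.08, SE 0.25) and Foxp1 (-0.83, SE 0.087) were also lower in spleen.

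Of 8 tested members of the germinal centre and antibody-secreting list, 7 were higher and 1 lower in spleen. Jchain, the chain that joins secreted antibodies, was at 7777, 5985 and 7198 CPM in spleen and 576, 646 and 449.7 CPM in blood (log2 change 3.66, SE 0.23, edgeR adjusted p = 0.00743). Xbp1, the secretory factor, gave 225, 190.4 and 153 against 39.1, 54.0 and 43.7 CPM. The cycling genes Mki67 (3.55, SE 0.30), Top2a (3.07, SE 0.21) and Pclaf (4.80, SE 0.26), named here without a list of their own, were higher without overlap. In treated mice Top2a stood at 0.27 (SE 0.25) and Pclaf at 1.73 (SE 1.03), neither past the threshold, and Mki67 was higher at 1.37 (SE 0.34). In 55 of 716 spleen B cells and 3 of 765 blood B cells the plasma cell list took at least 1% of the UMIs. Jchain is in that list, so its value without cells rich in any other list, 0.91 (SE 0.63), is not read as a result; Xbp1, which is not, stayed at 1.17 (SE 0.18, edgeR adjusted p = 3.73e-06) and Mki67 at 3.64 (SE 0.29, edgeR adjusted p = 1.26e-12).

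Neutrophil granule genes were among those with the largest log2 changes in the B gate. Camp, an antimicrobial peptide of neutrophils, was at 1555, 3548 and 3229.5 CPM in the spleens and 59.3, 67.1 and 79.5 CPM in blood (log2 change 5.26, SE 0.28, edgeR adjusted p = 0.00263), and S100a9 at 6713, 11854 and 12400.5 against 558, 854 and 447 CPM. Ngp (4.87, SE 0.15), Fcnb (5.86, SE 0.30), Prtn3 (5.45, SE 0.63) and Lcn2 (3.71, SE 0.18) were higher as well. The 7 genes of the neutrophil list summed to 13621, 24124 and 26400 CPM in spleen B cells and to 1428, 1901 and 1003 CPM in blood B cells. Neutrophil genes took at least 1% of the UMIs in 14 of 716 spleen B cells and 4 of 765 blood B cells. Without the cells rich in any other list (97 in spleen and 36 in blood), Camp stood at -0.47 (SE 0.17) and S100a9 at -0.55 (SE 0.092); genes of this list were used to remove cells, so these values describe the cells left and are not read as a result. The other groups gave similar counts in that fit, in which 1982 of 8225 genes passed (24.1%, with 13.5% higher and 10.6% lower): 13 of 16 egress genes were lower, 13 of 16 marginal zone genes higher and 10 of 16 follicular genes lower. Anxa1, an anti-inflammatory annexin at 2.42 (SE 0.13) in all B cells, was at 0.15 (SE 0.21, edgeR adjusted p = 0.66). Igkv15-103, an antibody light chain gene at 5.67 (SE 0.32), was too low to be tested there, as were the eosinophil granule gene Prg2 (4.40, SE 0.32) and Fcnb.

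Of the 6 heat shock genes in the stress list (Hspa1a, Hspa1b, Hsp90aa1, Hspa8, Hsph1 and Dnajb1), 6 of 6 tested were higher in spleen in B cells, 5 of 6 in CD8 T cells and 4 of 5 in NK cells, and none was lower. Those that did not pass were Hsph1 in CD8 T cells, at 0.84 (SE 0.25, edgeR adjusted p = 0.0544), and Dnajb1 in NK cells, at 0.89 (SE 0.39, edgeR adjusted p = 0.272). In B cells Hspa1b, an inducible HSP70, was at 723, 570.4 and 751 CPM in the spleens of mice 1, 2 and 3 and 90.7, 114 and 98.1 CPM in blood (log2 change 2.75, SE 0.12, edgeR adjusted p = 7.24e-10). The CD8 T cells held 761, 986 and 851 against 86.3, 69.7 and 79.9 CPM (log2 change 3.45, SE 0.12, edgeR adjusted p = 4.38e-14), and the NK cells (mice 1 and 2) held 1119 and 530.5 against 135 and 157 CPM (log2 change 2.46, SE 0.36, edgeR adjusted p = 0.00929). No spleen sample overlapped a blood sample in any class. Without the cells rich in lists of other cell types the values were 3.01, 3.64 and 2.45 for B, CD8 T and NK cells. Its twin Hspa1a gave log2 changes of 2.45 (SE 0.20), 2.81 (SE 0.24) and 2.41 (SE 0.30) in the same order. Hspa1a and Hspa1b are near-identical neighbours on chromosome 17 (GRCm38.p6, 34969359 to 34972156 and 34956429 to 34959238), so reads may have been split or lost between them. The differences of the Hspa1b log2 change between classes did not pass: CD8 T minus B was 0.69 (SE 0.29, edgeR adjusted p = 0.25) and NK minus CD8 T -1.01 (SE 0.40, edgeR adjusted p = 0.44).

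Heat shock factor binds inverted GAA repeats. The RefSeq window of 250 bases before the start of Hspa1a is printed to show the 1 such element found in it, in capitals (chr17:34972157-34972406, minus strand, GRCm38.p6).
Hspa1a: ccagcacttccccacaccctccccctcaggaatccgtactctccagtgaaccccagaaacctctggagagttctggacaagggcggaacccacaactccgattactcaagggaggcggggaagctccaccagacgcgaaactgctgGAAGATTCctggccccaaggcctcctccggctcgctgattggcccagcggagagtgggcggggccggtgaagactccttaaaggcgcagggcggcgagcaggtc
The search took GAANNTTC and TTCNNGAA, each of which reads the same on both strands and which can overlap each other. The window of Hspa1b differed from it at 3 of 250 positions and held the same element. Windows were given for 4 of the 6 heat shock genes in the stress list, and those of Hspa1a, Hspa1b and Hsph1 held a match and that of Dnajb1 none, while 14.5% of all 27025 genes with a window held one.

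Over the whole immediate early and stress list, 28 genes were tested in B cells, of which 12 were higher and 8 lower in spleen, and with total counts 9 were higher and 13 lower. The AP-1 genes split: Jun was at 1469.6, 1532 and 1559 CPM in spleen and 588, 753 and 709 CPM in blood (log2 change 1.16, SE 0.076, edgeR adjusted p = 3.88e-09), and Junb at 646, 543 and 570.1 against 1462, 1479 and 1385 CPM (log2 change -1.30, SE 0.077, edgeR adjusted p = 9.77e-10). Egr1, another early response gene, was higher at 1.21 (SE 0.13) and the co-chaperone gene Dnajb1 at 1.42 (SE 0.12). For CD8 T cells, of 25 tested 9 were higher and 2 lower in spleen, with Jun at 0.47 (SE 0.095), Junb at -0.72 (SE 0.082) and Dnajb1 at 1.35 (SE 0.17). In NK cells, of 20 tested 6 were higher and none lower in spleen, among them Hsp90aa1 (1.36, SE 0.27), Hspa8 (1.10, SE 0.22), Jun (1.35, SE 0.32) and Fosb (1.13, SE 0.23), while Junb, at -0.37 (SE 0.17), did not pass. Whether these genes moved in the animals or while the tissues were handled was not tested.

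**Figure D3:**
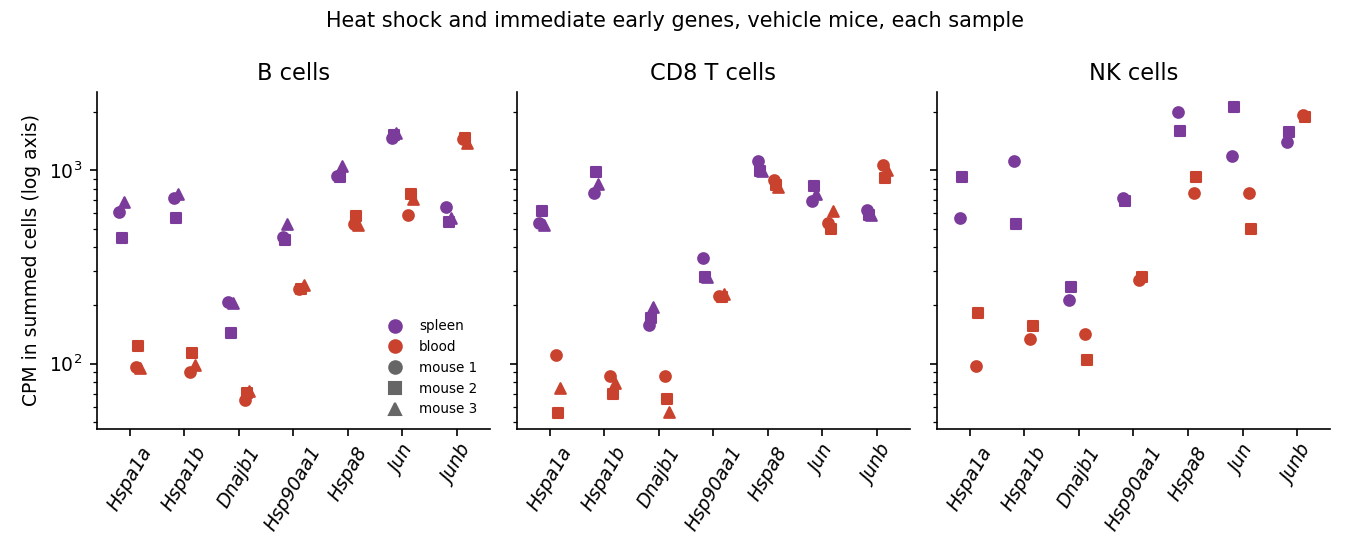
CPM of heat shock and AP-1 genes in summed cells of each vehicle sample (log y axis) for the 3 classes, with spleen and blood in 2 colours; NK cells are those of mice 1 and 2. Hspa1a and Hspa1b stand higher in every spleen in all 3 classes, and Junb stands higher in every blood sample.

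In CD8 T cells, of 5757 genes tested, 238 passed the edgeR threshold (4.13%), 92 higher in spleen (1.6%) and 146 lower (2.54%). The count rests on the test: limma voom called 255 and DESeq2 8, namely Hspa1a, Hspa1b, Ddit4, Fkbp5, Cd160, Cst3, Naaa and Trnp1, all higher in spleen. The median dispersion was 0.0162 in edgeR's trend and 0.1495 in DESeq2. These are unlike measures, as the edgeR test adds a quasi-likelihood dispersion for each gene. Whether they account for the difference in counts was not tested. Total counts in place of TMM gave 156 higher and 79 lower, with the median of all genes at 0.11. Leaving out mouse 1, 2 or 3 left 99, 150 and 220 genes. Counts of called genes do not rank the classes, which differ in cells (1481, 570 and 147) and, for NK cells, in pairs.

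Of 15 egress genes tested in CD8 T cells, 5 were lower in spleen (Klf2, Klf3, Klf6, S1pr1 and Ccr7) and none higher, with a median of -0.31 beside 0.00. Klf2 was at 715, 691 and 676 CPM in the spleens and 1200.0, 1281 and 1132 CPM in blood, 1.73-fold higher in blood (log2 change -0.79, SE 0.076, edgeR adjusted p = 4.03e-07). Ccr7 was at 93.8, 98.1 and 82.4 against 161, 201 and 233 CPM (log2 change -1.10, SE 0.14, edgeR adjusted p = 2.53e-05). S1pr1 was at 134, 136 and 116 against 193, 217 and 172 CPM (log2 change -0.59, SE 0.12, edgeR adjusted p = 0.00305). In these 3 genes each blood sample exceeded each spleen sample. The tissues overlapped in Itga4 (0.10, SE 0.12), Itgb7 (0.08, SE 0.13), Itgal (0.22, SE 0.19) and Cxcr4 (0.06, SE 0.20), none of which passed. Cd69 (-0.31, SE 0.12) and S1pr4 (-0.36, SE 0.18) did not pass. None of the 15 passed under DESeq2, where 3 had an unadjusted p under 0.05, the adjusted p of Klf2 was 1 and that of Ccr7 1.

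**Figure D4:**
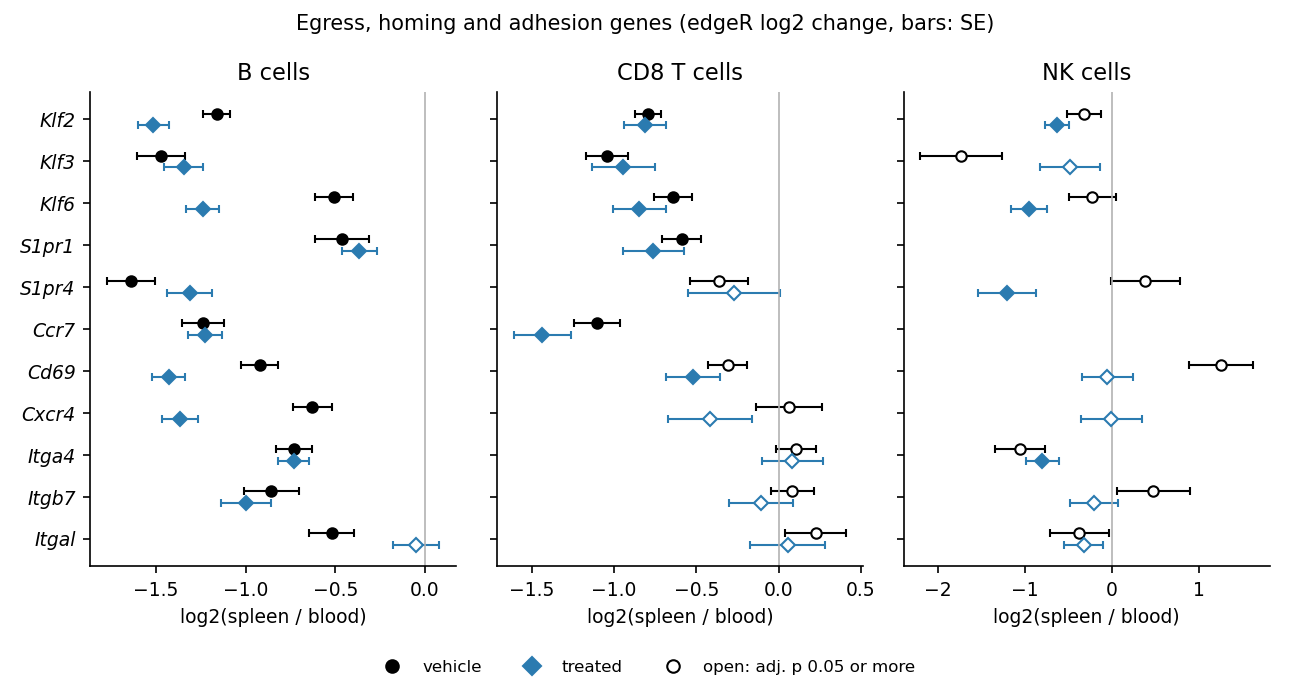
Log2 change of spleen over blood (x axis, bars for the SE) for egress, homing and adhesion genes in the 3 classes, for vehicle mice (circles) and treated mice (diamonds), filled where the edgeR adjusted p is under 0.05. In vehicle B cells all plotted genes are below 0, while in CD8 T cells Itga4, Itgb7, Itgal and Cxcr4 lie near 0, and in NK cells no vehicle value is filled.

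Besides the heat shock genes, spleen CD8 T cells held more Ddit4, a brake on mTOR signalling, at 99.6, 116 and 100.4 CPM against 15.5, 6.15 and 11.2 CPM in blood (log2 change 3.20, SE 0.27, edgeR adjusted p = 3.46e-08). Fkbp5, a co-chaperone of steroid receptors that glucocorticoids induce, was at 72.5, 89.3 and 84.6 against 19.0, 4.1 and 20.8 CPM (log2 change 2.42, SE 0.30, edgeR adjusted p = 5.37e-05). Cd160, a surface receptor of cytotoxic cells, was at 32.9, 45.3 and 65.5 against 3.45, 10.3 and 11.2 CPM (log2 change 2.53, SE 0.34, edgeR adjusted p = 3.33e-05). All 3 spleens were above all 3 blood samples in each. Gpr65, a proton-sensing receptor, was higher at 1.51 (SE 0.23). Irf8 (1.71, SE 0.25), Ppt1 (1.69, SE 0.24) and Cd24a (1.10, SE 0.25) were higher too but not without the cells rich in lists of other cell types, where they stood at 0.67, 0.45 and 0.77 with edgeR adjusted p of 0.354, 0.505 and 0.196. Irf8 is a factor of B cells and myeloid cells. Such cells were 13 of 349 in spleen and 5 of 221 in blood, and the neutrophil list summed to 39251 CPM in the spleen of mouse 3 against 1944 CPM or less in the other samples.

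Of 19 effector and memory genes tested in CD8 T cells, 4 were higher and none lower in spleen: Ctla2a, a protease inhibitor (1.38, SE 0.16), Klrk1, the activating receptor NKG2D (1.32, SE 0.30), Il2rb, a chain of the IL-2 and IL-15 receptors (0.89, SE 0.15), and Id2 (0.64, SE 0.14), which did not pass without the cells rich in other lists (0.35, SE 0.15, edgeR adjusted p = 0.242). Il2rb was at 143, 139.6 and 151 CPM in spleen and 89.8, 75.9 and 68.7 CPM in blood. The granule genes Gzma, at -0.65 (SE 1.02), and Gzmb, at -0.20 (SE 0.53), did not pass. The chemokine receptor Cxcr3, carried by activated T cells, was higher at 1.16 (SE 0.29). Of 15 naive genes, Foxp1 (-0.78, SE 0.11), Dapl1 (-0.62, SE 0.12) and Cd28 (-0.77, SE 0.19) were lower and none was higher. Other genes lower in spleen were the complement regulator Cd55 (-1.31, SE 0.20), the NF-kB inhibitor Tnfaip3 (-1.04, SE 0.19), Tagap (-1.14, SE 0.26), the kinase Pim1 (-1.0, SE 0.14), Zfp330 (-1.02, SE 0.27) and Gm8369 (-0.99, SE 0.12).

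CD8 T cells with at least 3 UMIs of Ccl5 and Nkg7, genes of memory and effector cells, were 67.2, 67.3 and 59.6% of CD8 T cells in the spleens and 50, 55.9 and 61.0% in blood, and 28.9, 33.0 and 43.0% and 25.0, 13.2 and 23.4% after thinning (exact permutation test p = 0.2 and p = 0.1). B cells passed that limit in 2.76% to 5.65%. Splitting at this limit, 204 of 4297 genes passed above it (4.75%) and 65 of 2675 below it (2.43%). Klf2 was lower in spleen on both sides, at -0.62 (SE 0.085, edgeR adjusted p = 7.38e-11) above and -1.04 (SE 0.12, edgeR adjusted p = 0.00103) below. The sides were fitted separately, so their p-values do not rank them. Ccr7 was at -1.10 (SE 0.17, edgeR adjusted p = 1.25e-08) above and -1.13 (SE 0.23, edgeR adjusted p = 0.0247) below, and Ddit4 was higher at 2.63 and 4.54. Cd55 passed only below it, at -2.53 (SE 0.30, edgeR adjusted p = 0.00103), and stood at -0.42 (SE 0.27, edgeR adjusted p = 0.516) above; the difference between the sides was not tested.

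NK cells were few in spleen: 14, 18 and 4 cells in mice 1, 2 and 3, against 40, 34 and 37 in blood. Mouse 3 therefore did not enter the test, which compared 2 pairs with 1 residual degree of freedom. Of 1520 genes tested, 102 passed (6.71%), 86 higher in spleen (5.66%) and 16 lower (1.05%). With all 3 mice 116 of 1428 passed (8.12%), DESeq2 called 63, and none passed after thinning to 2000 UMIs, where 135 of 626 genes had an unadjusted p under 0.05. Total counts gave 59 higher and 32 lower, with the median of all genes at -0.21. NK markers summed to 10938, 15532 and 6570 CPM in the NK gate of the spleens and to 23620, 24441 and 24096 CPM in that of blood; part of that list is described next.

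Of 12 mature NK genes tested, 3 were lower in spleen and none higher. Gzma, a granule protease, was at 5873 and 8521 CPM in the spleens of mice 1 and 2 and 14451 and 15344 CPM in their blood (log2 change -1.07, SE 0.15, edgeR adjusted p = 0.00929). Prf1, perforin, was at 307 and 481 against 1207 and 1093 CPM (log2 change -1.56, SE 0.28, edgeR adjusted p = 0.0116). Cma1, a chymase, was at 76.7 and 66.3 against 375 and 411 CPM (log2 change -2.43, SE 0.42, edgeR adjusted p = 0.0107). The median log2 change of the list was -1.23, beside -0.02 over all genes; DESeq2 called 2 of the 12, with 7 adjusted values missing, and after thinning none of 8 passed. Others of the list did not pass: S1pr5, the exit receptor of mature NK cells, at -1.55 (SE 0.49, edgeR adjusted p = 0.103), Klrg1 at -2.08 (SE 0.68, edgeR adjusted p = 0.121) and Zeb2 at -1.01 (SE 0.31, edgeR adjusted p = 0.0954). Klra9, one of the Ly49 receptors whose close relatives could share its reads, was lower at -2.19 (SE 0.33), and the chemokine Ccl4 at -1.25 (SE 0.27). The cytoskeletal genes Flna (-2.16, SE 0.42), Lgals1 (-1.04, SE 0.18), Ahnak (-1.02, SE 0.24) and Tln1, which links integrins to actin (-1.28, SE 0.30), were lower as well. Among blood NK cells, 1 of mouse 2 was rich in the erythroid list and 1 of mouse 3, outside the test, in the plasma cell list. The fit without such cells thus differed from the main one by 1 cell. In it 9 of the 12 were lower, among them S1pr5 (-1.56, SE 0.53, edgeR adjusted p = 0.0391) and Klrg1 (-2.10, SE 0.60, edgeR adjusted p = 0.0123). Over all genes 165 of 1517 were called (10.9%, lower 2.77%). The log2 changes of these 2 genes hardly moved from the main fit. The count varied: 4 of 12 were lower with all 3 mice (21 of 1428 over all genes), 7 in HTODemux singlets (38 of 1317) and 2 under limma voom (13 of 1520). With all 3 mice Flna (-1.35), Ahnak (-0.79) and Tln1 (-1.04) no longer passed.

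Genes of immature NK cells and of related innate lymphoid cells were higher in spleen for 5 of 8 tested and lower for none. With all 3 mice 3 of 7 were higher, and none passed after thinning (5 tested) or under DESeq2, where 6 of 8 adjusted values were missing and 5 genes had an unadjusted p under 0.05. Il7r, the IL-7 receptor, was at 368 and 547 CPM in the spleens and 119.9 and 26.2 CPM in blood (log2 change 2.58, SE 0.53, edgeR adjusted p = 0.0174). Ltb, lymphotoxin beta, was at 506 and 282 against 105 and 61.2 CPM (log2 change 2.23, SE 0.38, edgeR adjusted p = 0.0107), and Cd7 at 721 and 381 against 187 and 139.9 CPM (log2 change 1.73, SE 0.32, edgeR adjusted p = 0.0116). Emb was higher at 2.40 (SE 0.51). With all 3 mice Cd7 no longer passed, at 1.39 (SE 0.41, edgeR adjusted p = 0.0617). Tmem176b had 28 UMIs among 165480 in the spleens of mice 1 and 2, in 3 of 14 and 4 of 18 cells, and 0 UMIs among 295969 in blood; against a floor of 3 UMIs over the group it was at least 16.7-fold higher. Mouse 3, outside the test, had 2 UMIs in 1 of 4 spleen cells and 7 UMIs in 1 of 37 blood cells, so its blood was not at 0. Serpina3g (2.75, SE 0.44), Ly6e (1.31, SE 0.27), the histone gene Hist1h4d (2.28, SE 0.43) and Cxcl10, at 307 and 133 against 7.50 and 0 CPM, were also higher, and Irf2 (-1.76, SE 0.44), Tnrc6a (-1.78, SE 0.46), Gm26532 (-2.00, SE 0.47) and AC149090.1 (-1.30, SE 0.33) lower. With all 3 mice Irf2 (-1.15, edgeR adjusted p = 0.232) and AC149090.1 (-0.87, edgeR adjusted p = 0.208) no longer passed. With cells as few as these, 1 or 2 cells can set a low gene. Of the 36 spleen NK cells of the vehicle mice, 4 also passed the B gate and were kept.

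The share of NK cells with a UMI of Klrg1, Cx3cr1, S1pr5 or Itgam, genes of mature cells, was 28.6, 33.3 and 25.0% in the spleens and 75.0, 76.5 and 78.4% in blood. Thinning left 15.4, 25.0 and 25.0% and 62.9, 60.6 and 61.1%. No spleen overlapped a blood sample in these shares, and the exact permutation test gave its smallest p, 0.1. The spleen share of mouse 3 rests on 4 cells. Median UMIs per NK cell were higher in the spleen of each mouse, with overlap between the tissues. They were 5961, 4122 and 6335 in the spleens of mice 1, 2 and 3 and 3907.5, 3696 and 4243 in blood. CD8 T cells with such a UMI were 5.88% to 10.5%. The share with a UMI of Cd27, Ctla2a, Thy1 or Cd7 overlapped between tissues at 71.4, 94.4 and 75.0% and 75.0, 58.8 and 78.4% (exact permutation test p = 0.6).

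**Figure D5:**
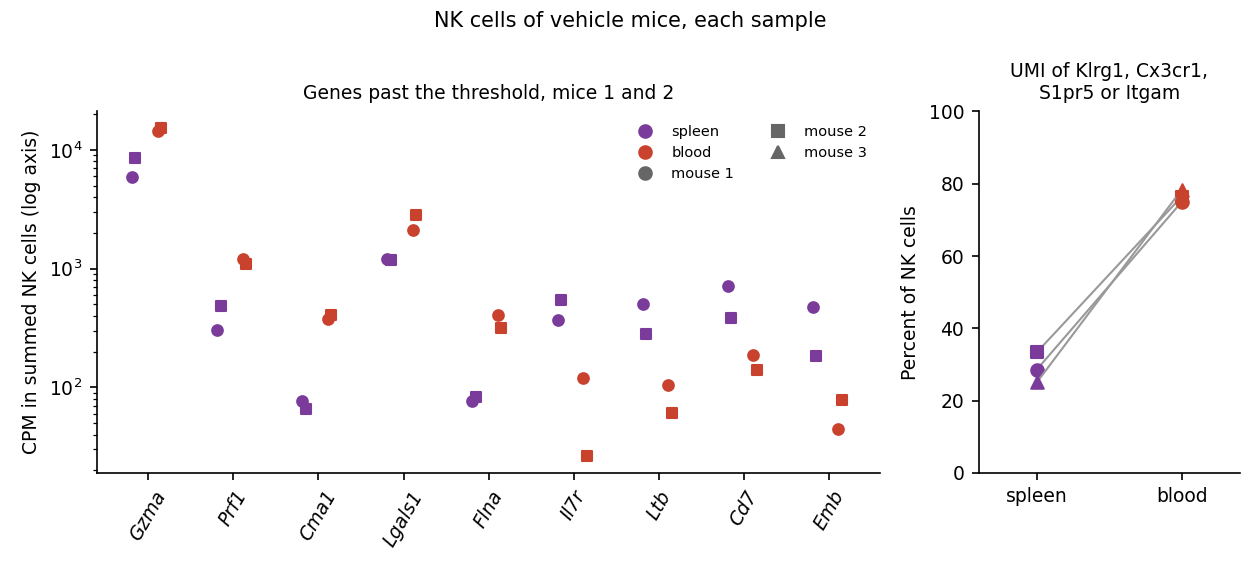
Left, CPM in summed NK cells of each sample of vehicle mice 1 and 2 (log y axis) for genes past the threshold; right, percent of NK cells with a UMI of 4 maturation genes in mice 1 to 3. Granule genes and the maturation share are higher in blood, and Il7r, Ltb, Cd7 and Emb are higher in spleen.

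None of the 11 egress genes tested in NK cells passed. Klf2 was at 1104 and 1542 CPM in the spleens and 1611 and 1661 CPM in blood (log2 change -0.32, SE 0.19, edgeR adjusted p = 0.455), and Cd69 at 445 and 249 against 157 and 131 CPM (log2 change 1.25, SE 0.37, edgeR adjusted p = 0.0791). S1pr4 was at 0.38 (SE 0.40), Itga4 at -1.06 (SE 0.29), Itgb7 at 0.47 (SE 0.42) and Itgal at -0.38 (SE 0.34). At an unadjusted p under 0.05, 3 of the 11 were past it, while limma voom and DESeq2 called none, the latter with 7 of the 11 adjusted values missing. Without the 1 blood cell of mouse 2 rich in the erythroid list, Cd69 (1.38, SE 0.39, edgeR adjusted p = 0.00874) and S1pr5 passed. Both calls thus turned on 1 cell.

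The tissue effect was tested for a difference between the classes in 1 model of 8706 genes. Cells in a pair of gates were not taken out of it. It differed between CD8 T and B cells in 363 genes (4.17%), between NK and B cells in 52 (0.597%) and between NK and CD8 T cells in 133 (1.53%). For S1pr4 the difference CD8 T minus B was 1.24 (SE 0.25, edgeR adjusted p = 0.000671), for Itga4 0.81 (SE 0.19, edgeR adjusted p = 0.00508) and for Itgb7 0.92 (SE 0.23, edgeR adjusted p = 0.00942). In these 3 genes the log2 change was more negative in B cells. For Klf2 the difference was 0.34 (SE 0.15, edgeR adjusted p = 0.25), for S1pr1 -0.16 (SE 0.20, edgeR adjusted p = 0.788) and for Ccr7 0.11 (SE 0.22, edgeR adjusted p = 0.873), none past the threshold. NK cells differed from B cells in Klf2, at 0.73 (SE 0.19, edgeR adjusted p = 0.0424), and in Cd69, at 2.06 (SE 0.31, edgeR adjusted p = 3.03e-05). CD4 T cells, the nearest class outside the gates, had 159 of 2695 genes past the threshold (5.9%; 2.97% higher and 2.93% lower) over 2 pairs, and of 15 egress genes 6 were lower in spleen and none higher.

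The treated mice gave the same comparison in animals that were not used above. In their B cells 1798 of 9029 genes passed (19.9%), in CD8 T cells 164 of 4498 (3.65%) and in NK cells, here with 3 pairs, 170 of 2278 (7.46%). The calls higher and lower in spleen were 10.8% and 9.16% of genes in B cells, 1.69% and 1.96% in CD8 T cells and 5.09% and 2.37% in NK cells. Of 16 egress genes in treated B cells 1 was higher and 13 lower in spleen, of 15 in CD8 T cells none was higher and 7 lower in spleen, and of 14 in NK cells none was higher and 3 lower in spleen. Klf2 was lower in the treated spleens in each class, at -1.52 (SE 0.087), -0.81 (SE 0.13) and -0.63 (SE 0.14) for B, CD8 T and NK cells. Marginal zone genes in treated B cells were higher for 17 and lower for 2 of 19, and of 12 mature NK genes 8 were lower and none higher. The share of treated NK cells with a UMI of Klrg1, Cx3cr1, S1pr5 or Itgam was 54.4% ± 3.85 in spleen and 66.0% ± 9.79 in blood (SD, n = 3; exact permutation test p = 0.1, its smallest value), a difference of -11.6 points beside -47.6 points in vehicle mice; the difference between the arms was not tested. Hspa1b was higher at 3.49 (SE 0.095), 3.82 (SE 0.17) and 3.39 (SE 0.18). Of 6 neutrophil genes in treated B cells none passed as higher and 1 as lower, with Camp at 1.02 (SE 1.59), and of 14 antigen presentation genes 2 were higher and 1 lower in spleen.

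The tissue effect itself differed between treated and vehicle mice in 134 of 9252 genes in B cells (1.45%), in 3 of 6028 in CD8 T cells (0.0498%) and in 7 of 2418 in NK cells (0.289%). Rgs1, which restrains chemokine receptor signals, was higher in the spleen B cells of vehicle mice (1.48, SE 0.16) and lower in those of treated mice (-1.72, SE 0.21), a difference of -3.20 (SE 0.25, edgeR adjusted p = 8.62e-09). In vehicle mice it was at 69.7, 44.6 and 74.9 CPM in spleen and 22.3, 15.4 and 29.9 CPM in blood, and in treated mice 2, 3 and 4 at 8.08, 16.3 and 8.6 against 33.5, 39.4 and 32.9 CPM. The 3 treated spleens lay below the 3 vehicle spleens, and the 3 treated blood samples above the 3 vehicle blood samples. The CPM of the 2 arms were scaled separately, so the small gap between the blood samples (29.9 and 32.9 CPM) may rest on the scaling. NK shares were again lower in spleen than in blood in the treated mice (3.60% against 11%, exact permutation test p = 0.1), while B cell and CD8 T cell shares overlapped between tissues (exact permutation test p = 0.2 and p = 0.5).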

How the data were processed

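The deposited matrix of the spleen and blood library holds UMI counts per gene and hashtag for each barcode, made by the authors with Cell Ranger 6.1.1 against mm10, per the submitters' processing notes. Other deposited files give gene names, barcodes and, in the authors' hashtag notes, the arm, mouse and tissue of each tag. Libraries were prepared with the 10x Chromium 3' kit, per the labels' protocols.

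Barcodes needed 200 genes, 500 gene UMIs and a mitochondrial share no higher than 10%, and were assigned by hashtag. Counts of each class were summed per sample (at least 10 cells) and tested with edgeR 4.0.16 (R 4.3.3; TMM, filterByExpr, robust quasi-likelihood F test, mouse number as block), with Benjamini-Hochberg adjustment over all genes tested and a threshold of 0.05. The log2 change is spleen minus blood. Its SE was derived from the test, as the absolute log2 change divided by the square root of the F statistic. CPM of single genes are counts scaled by the summed UMIs of the tested genes of that class and sample, with TMM factors. These factors were computed separately for each class and arm. CPM summed over marker lists or lists of other cell types are scaled by all gene UMIs of that class and sample, without TMM. Pairing by mouse number comes from the hashtag notes. Deviations of same-numbered samples correlated at -0.45, 0.01 and -0.21 in B cells and at -0.08, 0.01 and -0.04 in CD8 T cells over 1000 genes, so the tissues of 1 mouse did not deviate together. Shares were compared with exact permutation tests. Alternatives included DESeq2 1.42.0, limma voom (limma 3.58.1), HTODemux (Seurat 5.3.0), thinning to 2000 UMIs, other gates and leaving out each mouse. The edgeR script was tested on simulated data.

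The members and the gene lists were chosen with earlier results of these data known, so list counts are descriptions. Named genes were, per class, the 8 with the largest log2 change each way among called genes with a mean log2 CPM of at least 5 and no overlap, up to 4 called genes of each list, and 11 egress and adhesion genes whatever their result. Further list members were named after their values were seen, and some genes that the rule takes in are not reported here. Sequences and gene positions come from RefSeq tables (GRCm38.p6) and tags from the hashtag notes. Samples of the ascites library were not used here beyond a count of shared barcodes.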

Additional observations from a re-analysis of the deposited data

Results flagged for a closer look

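The tissue effect differed between treated and vehicle mice, by an interaction test over all genes, in 12 named genes of B cells. The difference, treated minus vehicle on the log2 scale, was -3.20 for Rgs1, -2.80 and -4.47 for the cell cycle genes Top2a and Hist1h2ab, and -2.69 for the growth factor binding protein gene Igfbp4. Jun differed by -0.82, Junb by -0.80, Cxcr4 by -0.74 and Irf8 by -0.59. Positive differences were found for Fcer2a (0.91), Hspa1b (0.73), Ciita (0.62) and Ltb (0.53). Jun was at 1.16 in vehicle and 0.35 in treated mice, Fcer2a at -2.19 in vehicle and -1.27 in treated mice, Hspa1b at 2.75 in vehicle and 3.49 in treated mice and Ciita at -0.88 in vehicle and -0.26 in treated mice.

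For CD8 T cells the interaction test called the calcium-binding protein gene S100a10 (1.31) and the interferon-induced gene Ifi27l2a (0.96). In NK cells it called Klra9 (1.42), Lgals1 (0.97) and Ccl4 (2.17), at -1.25 in vehicle and 0.91 in treated mice for Ccl4. Tmem176b (-8.70) was called too, but its fitted value rests on vehicle blood at 0 UMIs in mice 1 and 2 and is no measure of size. Vehicle NK cells entered with 2 mice and treated NK cells with 3.

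The tissue effect also differed between classes of the vehicle mice. S1pr4 differed by 1.24 between CD8 T and B cells and by 1.92 between NK and B cells. Itga4 (0.81) and Itgb7 (0.92) differed between CD8 T and B cells. Against B cells, NK cells differed in Klf2 (0.73), Cd69 (2.06) and Cxcr4 (2.10), and against CD8 T cells in Cd69 (1.46) and Itga4 (-1.15). Cxcr4 was too low for the test within NK cells alone.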

How the results depend on the processing

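With the mouse as a replicate block 2185, 238 and 102 genes passed in B, CD8 T and NK cells, and without it 2137, 227 and 105. Leaving out 1 mouse gave B cell share differences of -19.3 to -14.4 points and left 1555 to 1750 genes in B cells and 99 to 220 in CD8 T cells. For NK cells no mouse could be left out, since 1 pair has no residual degrees of freedom; the fits with at least 20 or 50 cells per sample, without cells holding genes of other classes, and on CD8 T cells without Ccl5 and Nkg7 UMIs had too few cells and were not run.

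Shares moved as follows. With at most 5% mitochondrial UMIs the B cell difference was -10.6 and the NK difference -13.7 points. Among B, CD4 T, CD8 T and NK cells alone the B difference was -10.1 and the CD8 T difference 8.64. Thinned cells gave -20.5 for B and 1.02 for CD8 T cells. A 90% hashtag limit gave 4.37 and a stricter gate 1.37 for CD8 T cells. The edgeR log2 ratios of -0.51 (B) and -2.05 (NK) passed where the permutation test cannot. Thinning took the subset differences to 18.1 points (marginal zone-like), 0.848 (transitional), -19.1 (neither), 11.1 (Ccl5 or Nkg7) and -39.7 (Klrg1, Cx3cr1, S1pr5 or Itgam).

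Genes past the threshold in B cells were 853 with DESeq2, 1295 at 5% mitochondrial UMIs, 607 without marginal zone-like and transitional cells, 323 without these and cells rich in other lists, and 681 after thinning. In CD8 T cells they were 8 with DESeq2, 364 with no filter, 42 at 5% mitochondrial UMIs, 125 with the stricter gate, 55 without cells with genes of other classes, 65 in cells under 3 Ccl5 and Nkg7 UMIs and 90 after thinning. In NK cells they were 63 with DESeq2, 161 without the 5% of cells with most UMIs, 165 without cells rich in other lists and 0 after thinning. Without a filter the interaction tests gave 81 (NK minus B), 296 (treated minus vehicle, B) and 33 (CD8 T). Fewer cells or UMIs entered most of these fits, and counts fell in some and rose in others. The cause was not tested for any of them.

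Direction turned for these log2 changes, cause not tested. In B cells: Dtx1 -0.063 at 5% mitochondrial UMIs; Ccl5 0.21 and Itgal 0.22 without cells with genes of other classes; Camp -0.47, Ngp -0.52, Lcn2 -0.38, S100a9 -0.55, Csf1r 0.20, Sdc1 -0.43 and Itgal 0.051 without cells rich in other lists, which all of these but Itgal helped to choose. Without marginal zone-like and transitional cells Ngp was -0.24, Anxa1 -0.64, Marcks -0.036, Satb1 0.044, Plac8 -0.34, S100a9 -0.54 and Itgal 0.30, and without both kinds of cell Ngp -0.18, Anxa1 -0.31, Satb1 0.077, Plac8 -0.21, S100a9 -0.077 and Itgal 0.29. Among CD8 T cells Cxcr4 ranged from -0.040 to 0.25 when 1 mouse was left out (-0.031 without mouse 1), and was -0.056 at 5% mitochondrial UMIs, -0.11 under 3 Ccl5 and Nkg7 UMIs and -0.38 thinned. Without cells with genes of other classes Cd69 was 0.014, Itga4 -0.14 and Itgb7 -0.039. Itga4 was -0.014 in HTODemux singlets and -0.20 under 3 Ccl5 and Nkg7 UMIs. At 3 or more, Fcmr was 0.085 and Itgb7 -0.059. Thinned S1pr4 was 0.069 and Itgal -0.34. Of the other values of named genes, 122 in B, 205 in CD8 T and 46 in NK cells no longer passed under an alternative, and 13 in NK cells newly passed.

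Depth limits NK cells most, with 25572 UMIs in 4 spleen cells of mouse 3. With 3 samples a tissue the exact tests cannot go below 0.1.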

Other observations

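Cytoskeleton and migration genes were tested for 32 members in B cells, of which 15 were lower and 5 higher in spleen. Over all genes 10.6% were lower and 14.3% higher, so the count of higher members lay near that share. Ahnak, a large membrane scaffold, was at 95.2, 68.9 and 76.8 CPM in spleen and 170.2, 212 and 179 CPM in blood (log2 change -1.22, SE 0.13, edgeR adjusted p = 3.47e-06). The actin linkers Ezr (-0.69, SE 0.10) and Msn (-0.74, SE 0.095) and the migration factor Dock2 (-0.73, SE 0.10) were lower, while Marcks (1.69, SE 0.11), used in the marginal zone-like gate, and Actg1 (0.46, SE 0.092) were higher. With total counts 23 were lower and 3 higher, and without marginal zone-like and transitional cells and cells rich in other lists 7 were lower and 2 higher. Over all genes, total counts gave 2119 of 8769 lower and 645 higher, and the fit without these cells 2.75% lower and 2.9% higher. In CD8 T cells Evl (-0.71, SE 0.13) and Msn (-0.56, SE 0.11) were lower as well, but Msn stood at -0.094 (edgeR adjusted p = 0.934) after thinning and at -0.32 (edgeR adjusted p = 0.205) in cells with 3 or more Ccl5 and Nkg7 UMIs. Among adhesion genes of B cells, the laminin receptor chain Itga6 was lower at -1.80 (SE 0.34) and the ligand gene Icam1 higher at 0.85 (SE 0.20).

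Type I interferon genes split in B cells, with 5 of 12 lower and 2 higher in spleen, where 10.6% of all genes were lower and 14.3% higher. Ifi27l2a was at 245, 254 and 192 CPM in spleen and 460.4, 537 and 653 CPM in blood (log2 change -1.25, SE 0.15, edgeR adjusted p = 0.000306), and Isg15, a ubiquitin-like protein, at 36.4, 43.6 and 16.4 against 11.2, 6.17 and 8.97 CPM (log2 change 1.79, SE 0.29, edgeR adjusted p = 0.000162). Without cells rich in other lists 2 of 10 were lower and 2 higher, near the 10.6% and 13.5% of all genes in that fit. In CD8 T cells 2 of 10 were lower and none higher, with 2.54% and 1.6% of all genes.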
